A study of Mus musculus with 15 samples.

Results

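The 10 genes described here, S100a8, S100a9, Csf3r, Cxcr2, Ltf, Lcn2, Camp, Ngp, Retnlg and Mxd1, are transcripts commonly used to mark neutrophils. They were taken by symbol from a table of 39331 genes measured in infarcted mouse hearts, and all 10 had enough reads to be among the 16437 genes tested. Messenger RNA came from left ventricles of C57BL/6 mice, and every animal had undergone experimental myocardial infarction, so no uninjured heart is included. The groups were neonatal hearts with transferred adult T cells (neonatal recipients, libraries 1, 2, 4 and 5), neonatal control hearts (libraries 6, 7, 8 and 9), adult hearts with transferred adult T cells (adult recipients, libraries 1, 2, 3 and 4) and adult control hearts (libraries 5, 6 and 7). The protocol gives 36 h after infarction and speaks of neonatal hearts only, and the neonatal controls are described there as untreated. The labels state neither ages in days, the adult time point, sex, the number of T cells nor whether each library was a separate animal, so p-values measure the spread between these libraries, which may be in part technical.

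Neutrophils are the first leukocytes to enter an infarct. They leave the bone marrow under the control of granulocyte colony-stimulating factor and of chemokines that bind CXCR2, and they carry antimicrobial proteins in granules that are filled in sequence while the cell matures, so that granule transcripts are most abundant in marrow precursors and decline in circulating cells. Receptors such as Csf3r and Cxcr2 and the cytosolic proteins S100a8 and S100a9 are by contrast made at high level in mature neutrophils. Several of these genes are not exclusive to neutrophils, since S100a8, S100a9 and Csf3r are also transcribed in monocytes, Lcn2 in stressed epithelium and myocardium, and Mxd1 in many cell types. In whole ventricle, fewer cells of a type and less RNA per cell cannot be told apart.

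Library totals ran from 21871617 to 34302786 counts, and 3 counts, taken as the floor of detection, equalled 0.0814 to 0.147 CPM, counts normalised to library depth with TMM factors (the trimmed mean of M values). Summed cardiomyocyte transcripts (6 genes) lay between 29180 and 48940 CPM in all 15 libraries. Neonatal control 8 stood apart from the other neonatal libraries, at 52.97 on a first principal component on which the other 7 spanned -21.07 to 9.60. It also had the lowest Csf3r of the neonatal libraries, so results for the 10 genes that rest on it are given with and without it. Ly6g, the gene of a surface antigen that defines mouse neutrophils, was at or under the 3-count floor in every library and at most 0.0978 CPM. Transcripts of primary granules, which are filled first, were also scarce, with only Prtn3 of 5 such genes tested. The 10 neutrophil genes together summed to 43.7 to 69.3 CPM in neonatal recipients, 35.7 to 70.2 in neonatal controls, 21.9 to 37.0 in adult recipients and 30.2 to 46.9 in adult controls.

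S100a8 and S100a9 encode the 2 subunits of calprotectin, a calcium- and zinc-binding alarmin that makes up much of the neutrophil cytosol. S100a8 (gene ID 20201) lies on GRCm38.p6 chromosome 3 from 90669071 to 90670034 on the plus strand, and S100a9 (20202) starts 22.6 kb further on, from 90692630 to 90695721 on the minus strand. S100a8 measured 11.5, 6.07, 11.8 and 5.56 CPM in neonatal recipients, against 6.99, 13.7, 5.07 and 8.14 in neonatal controls. In adult hearts it measured 2.23, 2.26, 4.70 and 3.76 CPM in recipients, against 3.04, 6.51 and 4.38 in controls. All 4 adult recipients lay below all 4 neonatal recipients, while the recipients and controls of each age overlapped. S100a9 measured 16.2, 9.43, 16.3 and 8.30 CPM in neonatal recipients, against 10.7, 20.0, 9.27 and 11.1 in neonatal controls. In adult hearts S100a9 had 4.51, 4.10, 10.96 and 5.64 CPM in recipients, against 6.08, 13.3 and 10.5 in controls. Here adult recipient 3 reached into the neonatal range, and the groups overlapped in every comparison.

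Csf3r encodes the receptor for granulocyte colony-stimulating factor, which drives the production and survival of neutrophils, and Cxcr2 encodes the receptor that guides them along CXC chemokines. Csf3r (12986) lies on chromosome 4 from 126023441 to 126044975 on the plus strand, and Cxcr2 (12765) on chromosome 1 from 74153994 to 74161246 on the plus strand. Csf3r measured 15.6, 11.5, 15.95 and 14.3 CPM in neonatal recipients, against 16.2, 15.5, 3.89 and 9.41 in neonatal controls. In adult hearts Csf3r had 1.55, 2.21, 3.42 and 2.59 CPM in recipients, against 3.80, 7.70 and 6.90 in controls. The adult recipients were the lowest group without overlap, below the adult controls and below every neonatal library, and control 8 was the only neonatal library in the range of the adult controls. Cxcr2 measured 1.95, 1.09, 2.28 and 1.09 CPM in neonatal recipients, against 1.74, 2.96, 0.796 and 1.39 in neonatal controls. Its levels in adult hearts were 0.273, 0.283, 0.489 and 0.1504 CPM in recipients, against 0.160, 1.57 and 0.933 in controls. These adult recipient levels rest on 4 to 10 counts per library, and adult control 5, with 4 counts, was as low as they were.

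Ltf, Lcn2, Camp and Ngp encode proteins of the secondary granules, which are filled later than the primary ones. Ltf (17002, chromosome 9, 111019292 to 111042766, plus strand) encodes lactoferrin, which binds iron. It measured 2.19, 1.82, 1.77 and 0.826 CPM in neonatal recipients, against 0.993, 1.09, 1.02 and 1.05 in neonatal controls. In adult hearts Ltf had 0.547, 1.70, 2.01 and 0.865 CPM in recipients, against 0.560, 0.634 and 1.38 in controls. Of the 4 neonatal recipients 3 lay above all 4 controls and recipient 5 lay below them. Lcn2 (16819, chromosome 2, 32384637 to 32387739, minus strand) encodes lipocalin 2, which withholds iron from bacteria by binding their siderophores. Lcn2 measured 1.62, 1.43, 2.24 and 1.39 CPM in neonatal recipients, against 1.14, 3.18, 0.924 and 1.39 in neonatal controls. Its adult levels were 0.455, 0.377, 1.32 and 0.564 CPM in recipients, against 0.640, 1.31 and 1.501 in controls. The adult recipients were below the neonatal recipients without overlap, with recipient 3 closest to them.

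Camp (12796, chromosome 9, 109847377 to 109849456, minus strand) encodes the precursor of the antimicrobial peptide cathelicidin, and Ngp (18054, chromosome 9, 110419808 to 110423012, plus strand) encodes neutrophilic granule protein, a relative of the cathelicidins and cystatins. With Ltf they lie within 1195 kb of chromosome 9. Camp measured 0.659, 0.546, 0.549 and 0.130 CPM in neonatal recipients, against 0.142, 0.217, 0.701 and 0.637 in neonatal controls. In adult hearts Camp had 0.273, 0.188, 0.196 and 0.376 CPM in recipients, against 0.600, 0.381 and 0.852 in controls. Camp was the scarcest of the 10 in raw counts, with 3 to 22 per library, so a library with a few reads more or less changes its rank. Ngp measured 2.48, 1.52, 1.39 and 1.13 CPM in neonatal recipients, against 1.53, 1.06, 1.78 and 0.900 in neonatal controls. Its adult levels were 1.55, 1.88, 2.05 and 1.2404 CPM in recipients, against 1.9996, 1.82 and 2.56 in controls. All 4 neonatal controls lay below all 3 adult controls, the only gene of the 10 with that pattern.

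Retnlg (245195, chromosome 16, 48872608 to 48874498, plus strand) encodes a secreted resistin-like protein of mouse neutrophils and bone marrow. It measured 1.92, 0.819, 2.45 and 1.43 CPM in neonatal recipients, against 1.14, 1.76, 1.05 and 0.862 in neonatal controls. In adult hearts Retnlg had 1.18, 0.612, 1.42 and 0.789 CPM in recipients, against 0.480, 1.31 and 0.933 in controls, so that all 4 groups overlapped. Mxd1 (17119, chromosome 6, 86647044 to 86669234, minus strand) encodes a partner of MAX that represses MYC target genes and rises during terminal myeloid differentiation. Mxd1 measured 9.52, 12.5, 14.6 and 9.56 CPM in neonatal recipients, against 10.1, 10.7, 11.2 and 9.49 in neonatal controls. Its adult levels were 9.29, 9.32, 10.5 and 8.42 CPM in recipients, against 12.8, 12.4 and 10.9 in controls. For Mxd1 the adult recipients lay just below the adult controls without overlap.

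**Figure D1:**
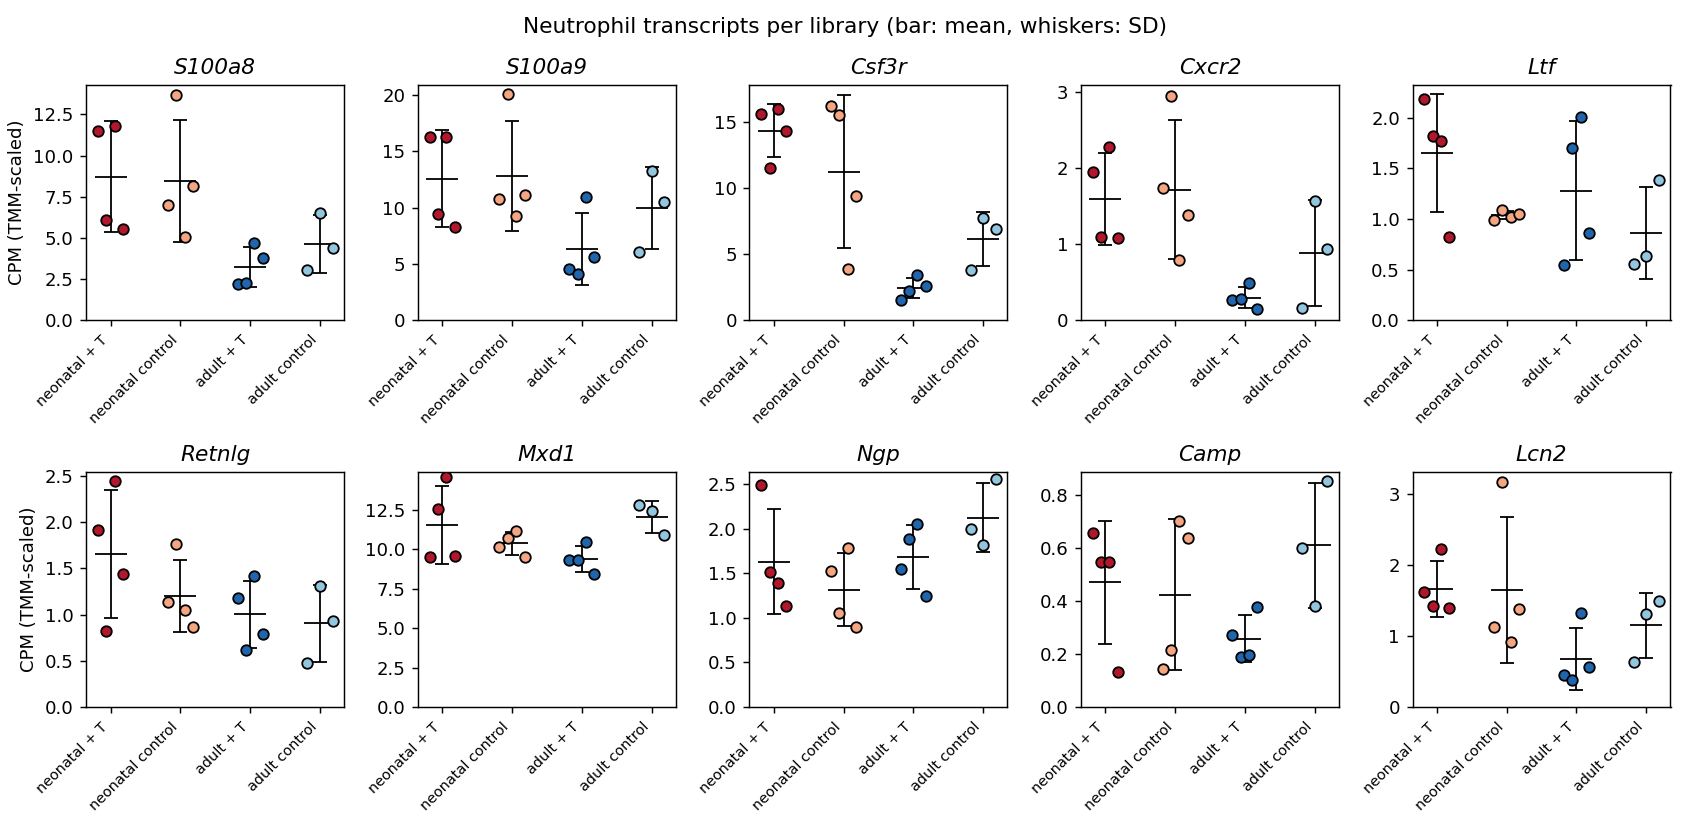
TMM-scaled CPM (y axis, linear, from 0) of the 10 neutrophil genes in each library (points), with the mean and SD of each group; n is 4, 4, 4 and 3 from left to right. Adult recipients have the lowest group mean for Csf3r (2.44 CPM), Cxcr2 (0.299 CPM), S100a8, S100a9, Mxd1, Camp and Lcn2, and not for Ltf, Retnlg and Ngp. Mxd1 lies between 8.42 and 14.6 CPM in all 15 libraries.

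Relative to transcript length, S100a9 was the most abundant of the 10 in every group and S100a8 came next. S100a9 averaged 24.2 ± 8.27 CPM per kb of transcript in neonatal recipients, 24.7 ± 9.42 in neonatal controls, 12.1 ± 6.11 in adult recipients, against 19.2 ± 6.99 in adult controls (SD, n = 4, 4, 4 and 3). S100a8 averaged 17.5 ± 6.77, 17.0 ± 7.45, 6.50 ± 2.42 and 9.33 ± 3.52 CPM per kb in the same groups, within the spread of S100a9 in neonatal hearts. Csf3r stood at 4.12 ± 0.581 CPM per kb in neonatal recipients, 3.23 ± 1.66 in neonatal controls, 0.702 ± 0.225 in adult recipients, against 1.76 ± 0.592 in adult controls, which placed it in the third rank in both neonatal groups, the sixth in adult recipients and the fourth in adult controls. Retnlg, Mxd1, Ngp and Lcn2 averaged between 0.494 and 2.79 CPM per kb. Cxcr2, Ltf and Camp filled the last 3 ranks in every group at 0.0981 to 0.806 CPM per kb, and their order changed between groups. In both neonatal groups the ranges of these 3 genes overlapped, as did those of Retnlg and Mxd1.

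The study's central comparison asks what adult T cells do to the infarcted neonatal heart. For the neutrophil genes edgeR gave no call: 0 of 10 were higher and 0 of 10 lower in neonatal recipients than in neonatal controls, beside 0.0% of all 16437 genes in either direction, and no member had an unadjusted p below 0.05 (3.12% of all genes did). Of the 10 log2 fold changes 7 were positive and 3 negative, with a median of 0.18 against -0.000169 over all genes. Calprotectin and Lcn2 transcripts had nearly equal means in both groups, at 8.73 ± 3.37 and 8.47 ± 3.71 CPM for S100a8, 12.6 ± 4.29 and 12.8 ± 4.89 for S100a9, and 1.67 ± 0.392 and 1.66 ± 1.03 for Lcn2 in recipients and controls (SD, n = 4 each). Ltf had the highest fold change, 1.65 ± 0.580 CPM in recipients, against 1.04 ± 0.0397 in controls, a log2 fold change of 0.68 ± 0.36 (standard error, unadjusted p = 0.0708 and adjusted p = 0.999 in edgeR's quasi-likelihood test). Csf3r, at 14.3 ± 2.02 CPM in recipients, against 11.2 ± 5.77 in controls, had a log2 fold change of 0.35 ± 0.36, and without neonatal control 8 it was 0.05. DESeq2 and limma voom called no member either. The standard errors were 0.13 for Mxd1 and 0.27 to 0.48 for the others.

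In adult hearts, 8 of the 10 genes had lower fitted levels with T cells and 2, Ltf and Retnlg, had higher ones, with a median log2 fold change of -0.59 against -0.00213 over all genes. None passed the adjusted threshold of 0.05: 0 of 10 were called higher, beside 3.53% of all genes, and 0 of 10 lower, beside 5.03%. At an unadjusted p below 0.05 the count was 4 of 10, beside 27.3% of all genes. Csf3r averaged 2.44 ± 0.783 CPM in adult recipients, against 6.13 ± 2.06 in adult controls (SD, n = 4 and 3), a log2 fold change of -1.33 ± 0.45 (unadjusted p = 0.0114, adjusted p = 0.0808). Its call differed between fits, for a reason that was not tested, and limma voom called 0 of the 10 genes. Csf3r was called lower by DESeq2 (-1.32, adjusted p = 0.0229), which called 6.61% of all genes lower, by edgeR on the adult libraries alone (-1.34, adjusted p = 0.0151), and by edgeR without neonatal control 8 (-1.31, adjusted p = 0.0161). Over the 15 fits that each left out 1 library its log2 fold change ran from -1.58 to -1.13 and its adjusted p from 0.0161 to 0.242.

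Cxcr2 averaged 0.299 ± 0.140 CPM in adult recipients, against 0.886 ± 0.704 in adult controls (log2 -1.58 ± 0.66, adjusted p = 0.132). The controls' mean came from controls 6 and 7, and leaving out 1 library at a time gave log2 fold changes between -2.08 and -0.89. Camp (-1.20 ± 0.56, adjusted p = 0.176) and Mxd1 (-0.36 ± 0.14, adjusted p = 0.103) were the other genes with an unadjusted p below 0.05. In 3 of the 10 genes, Csf3r, Mxd1 and Camp, every adult recipient lay below every adult control, beside 12.0% of all genes. S100a8 averaged 3.24 ± 1.21 CPM in recipients, against 4.64 ± 1.75 in controls, and S100a9 6.30 ± 3.17 and 9.94 ± 3.63, with log2 fold changes of -0.52 ± 0.42 and -0.66 ± 0.42 that did not pass. When a trend with transcript length was removed from each library, Csf3r, whose transcript has 3481 bases, had -1.31 (adjusted p = 0.126), Mxd1 -0.26 and S100a8 -0.68, and 0 of all genes passed. The 1406 genes called in adult hearts fell to 0 without recipient 4, control 5 or control 6, and to 464 without recipient 2.

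**Figure D2:**
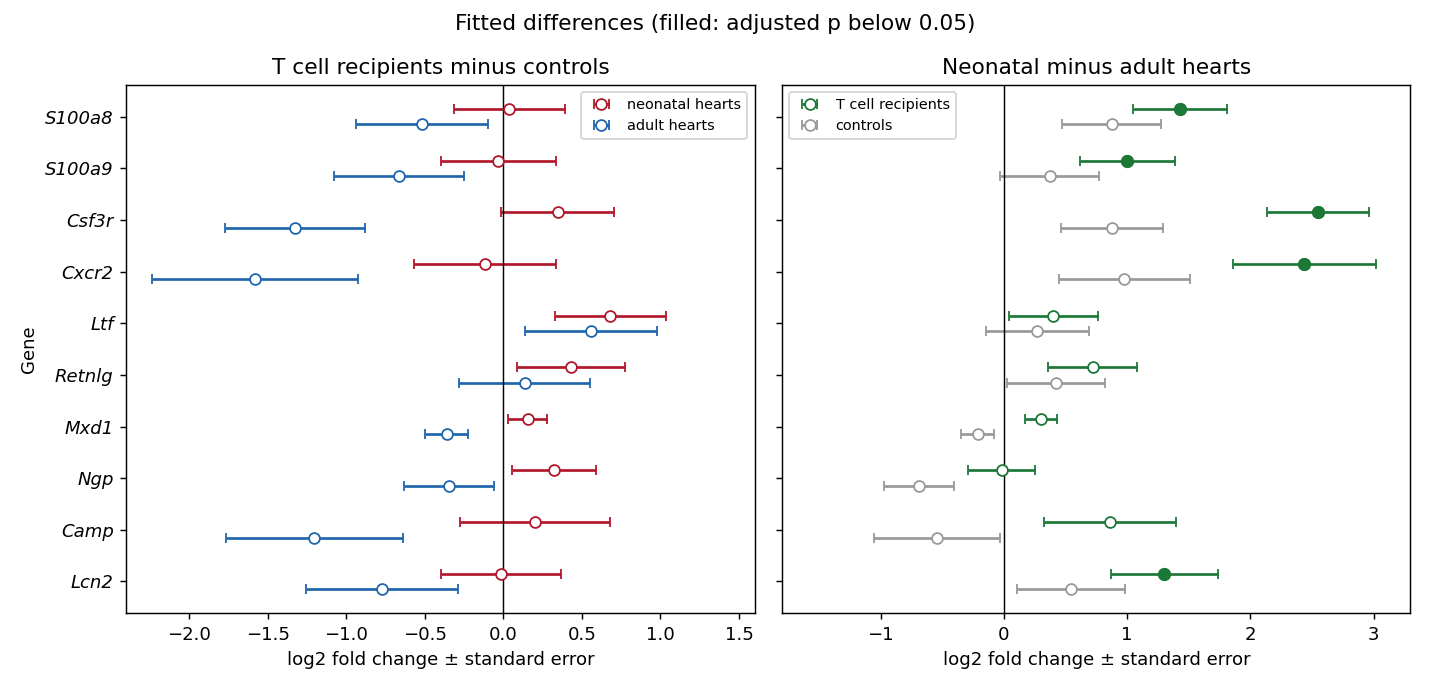
Fitted log2 fold changes (x axis) ± standard error of the 10 genes (y axis), for T cell recipients minus controls (left) and for neonatal minus adult hearts (right); filled points passed an adjusted p of 0.05. No point on the left is filled, and the 5 filled points on the right are S100a8, S100a9, Csf3r, Cxcr2 and Lcn2 in recipients.

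The difference between the T cell effects at the 2 ages was tested directly. All 10 values were positive, meaning a more positive or less negative change in neonatal hearts, with a median of 0.65 against 0.00749 over all genes, of which 51.1% were positive. No gene passed: 0 of 10 members were called in either direction, beside 0.0% of all genes, and 2 of 10 had an unadjusted p below 0.05, beside 15.3%. Those 2 were Csf3r (1.67 ± 0.58, unadjusted p = 0.0126, adjusted p = 0.22) and Mxd1 (0.51 ± 0.19, unadjusted p = 0.0131, adjusted p = 0.22). Ltf and Retnlg had the lowest values, 0.13 and 0.30, and turned negative when single libraries were left out. DESeq2, which called 174 genes in this contrast, gave Csf3r 1.67 and Mxd1 0.50 but no adjusted p for either, because both fell under its independent filter.

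The age comparison among hearts that had received T cells set neonatal against adult recipients. In it 5 of the 10 genes, S100a8, S100a9, Csf3r, Cxcr2 and Lcn2, were called higher in neonatal recipients, beside 26.9% of all genes, and 0 of 10 were called lower, beside 23.8%. In 4 of them, all but S100a9, every neonatal library lay above every adult one, beside 23.8% of all genes. The median log2 fold change was 0.93 against 0.0308 over all genes. The receptors differed most: Csf3r averaged 14.3 ± 2.02 CPM in neonatal recipients and 2.44 ± 0.783 in adult recipients (SD, n = 4 each), 5.86-fold higher (log2 2.55 ± 0.41, adjusted p = 0.000227), and Cxcr2 1.601 ± 0.606 and 0.299 ± 0.140, 5.42-fold higher (2.44 ± 0.58, adjusted p = 0.00238). S100a8 was 2.69-fold higher (1.43 ± 0.38, adjusted p = 0.0069), Lcn2 2.46-fold (1.30 ± 0.43, adjusted p = 0.0188) and S100a9 2.003-fold (1.002 ± 0.38, adjusted p = 0.045).

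The calls were of unequal firmness. Csf3r, Cxcr2 and S100a8 passed in all 15 fits that left out 1 library. Lcn2 passed in 11 of the 15 and did not pass without neonatal recipient 4 or adult recipients 1, 2 or 4 (log2 1.11 to 1.22, adjusted p = 0.0533 to 0.0611). S100a9 passed in only 6 of the 15. It was lost without neonatal recipients 1 or 4, neonatal controls 6, 8 or 9, adult recipients 1, 2 or 4, or adult control 7 (0.85 to 1.0, adjusted p = 0.0533 to 0.116), and also on the recipient libraries alone or with no filter on low counts. Of the genes that did not pass, Mxd1 had 0.30 ± 0.13 (adjusted p = 0.0584), Retnlg 0.72 ± 0.36 (adjusted p = 0.106), Camp 0.86 ± 0.54, Ltf 0.40 ± 0.36 and Ngp -0.02 ± 0.27. Mxd1 passed without neonatal recipient 1 or 5 or adult recipient 3 (0.36 to 0.39), and Retnlg without neonatal recipient 2 (0.96, adjusted p = 0.0317). Of the 4 secondary granule genes, Lcn2 was thus the only one called. Age is confounded with every other difference between the neonatal and adult sets, including any difference in the time after infarction, and these cannot be told apart.

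The start regions of the 5 called genes are shown because S100a8 and S100a9, neighbours that varied together, carry different motifs there. C/EBP factors and PU.1 drive myeloid genes, and their short core motifs were searched on both strands of the RefSeq windows of 300 bases around each start (GRCm38.p6). Capitals mark TTGCNNAA or its complement TTNNGCAA (C/EBP core) and GAGGAA or TTCCTC (PU.1 core). The windows are chr3:90668821-90669120 (+) for S100a8, chr3:90695672-90695971 (-) for S100a9, chr4:126024409-126024708 (+) for Csf3r, chr1:74153744-74154043 (+) for Cxcr2 and chr2:32387690-32387989 (-) for Lcn2, each printed 5′ to 3′ on the strand of its gene.
S100a8: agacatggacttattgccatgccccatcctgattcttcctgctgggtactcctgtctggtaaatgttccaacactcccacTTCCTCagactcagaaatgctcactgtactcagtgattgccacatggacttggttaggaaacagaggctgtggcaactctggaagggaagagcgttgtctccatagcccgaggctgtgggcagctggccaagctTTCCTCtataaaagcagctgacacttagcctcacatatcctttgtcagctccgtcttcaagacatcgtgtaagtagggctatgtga
S100a9: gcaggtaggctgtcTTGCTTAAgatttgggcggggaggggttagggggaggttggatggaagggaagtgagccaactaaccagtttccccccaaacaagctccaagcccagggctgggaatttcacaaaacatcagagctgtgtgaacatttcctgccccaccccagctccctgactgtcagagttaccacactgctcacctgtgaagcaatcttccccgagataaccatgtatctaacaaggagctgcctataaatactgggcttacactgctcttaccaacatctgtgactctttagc
Csf3r: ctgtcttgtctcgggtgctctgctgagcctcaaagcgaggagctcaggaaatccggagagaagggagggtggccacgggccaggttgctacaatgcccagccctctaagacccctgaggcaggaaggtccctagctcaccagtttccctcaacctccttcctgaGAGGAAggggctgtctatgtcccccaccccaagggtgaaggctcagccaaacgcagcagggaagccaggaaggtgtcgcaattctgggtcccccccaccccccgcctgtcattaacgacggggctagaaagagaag
Cxcr2: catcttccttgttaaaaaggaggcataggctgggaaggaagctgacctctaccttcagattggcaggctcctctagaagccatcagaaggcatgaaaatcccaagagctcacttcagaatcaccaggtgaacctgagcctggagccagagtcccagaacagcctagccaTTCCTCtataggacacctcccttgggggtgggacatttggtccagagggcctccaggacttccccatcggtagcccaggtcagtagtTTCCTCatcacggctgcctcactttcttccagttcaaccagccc
Lcn2: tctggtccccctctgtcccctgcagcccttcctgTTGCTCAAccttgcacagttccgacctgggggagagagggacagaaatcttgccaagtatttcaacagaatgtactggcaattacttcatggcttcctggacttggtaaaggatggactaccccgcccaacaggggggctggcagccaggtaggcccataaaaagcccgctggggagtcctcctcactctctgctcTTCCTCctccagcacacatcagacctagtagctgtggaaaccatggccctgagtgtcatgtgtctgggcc

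The S100a8 window holds 2 PU.1 cores and no C/EBP core, and the S100a9 window holds 1 C/EBP core and no PU.1 core. Csf3r has 1 PU.1 core, Cxcr2 has 2, and Lcn2 has 1 of each kind. The Csf3r window lies inside the gene's span, at the start that RefSeq lists in the promoter table. Over all 10 genes, 5 windows held a C/EBP core (S100a9, Ltf, Retnlg, Ngp and Lcn2), beside 10.8% of 32851 RefSeq windows of the same length. A PU.1 core stood in 5 of the 10 (S100a8, Csf3r, Cxcr2, Ltf and Lcn2), beside 28.3%, and both in 2, Ltf and Lcn2, beside 2.92%. Mxd1 and Camp held neither in this window. The motifs do not overlap each other in the printed windows, and a match describes letters only.

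Without T cells, the median log2 fold change of the 10 genes between neonatal and adult hearts was lower than in recipients, and none of the 10 passed. In neonatal against adult controls 0 of 10 genes were called higher, beside 15.4% of all genes, and 0 of 10 lower, beside 15.6%, with 7 positive and 3 negative values (median 0.40 against 0.0176 over all genes). S100a8 averaged 8.47 ± 3.71 CPM in neonatal controls and 4.64 ± 1.75 in adult controls (SD, n = 4 and 3), a log2 fold change of 0.87 ± 0.40 (adjusted p = 0.119). Csf3r had 0.88 ± 0.41 (adjusted p = 0.126) and Cxcr2 0.97 ± 0.53 (adjusted p = 0.18). Ngp went the other way, at 1.32 ± 0.409 CPM in neonatal controls and 2.12 ± 0.384 in adult controls (-0.69 ± 0.29, adjusted p = 0.076), and it was the 1 gene of 10 in which every neonatal control lay below every adult control, beside 17.7% of all genes. These calls changed when single libraries were left out. Without neonatal control 8 Csf3r passed (1.16, adjusted p = 0.00282) and so did Ngp (-0.87, adjusted p = 0.0299). Ngp also passed without neonatal recipient 1 (-0.69, adjusted p = 0.0495). Calls in recipients and none in controls do not show that the age difference depended on T cells. The test of that is the difference between the T cell effects given above, which is the same contrast and called 0 of 10 genes.

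The within-group variation of the 10 genes from library to library was compared pair by pair. Log2 CPM was centred on each group's mean, and Pearson's r was taken over the 15 libraries for all 45 pairs, as a description, since the genes share libraries and depth. The median r was 0.232. S100a8 and S100a9 had the highest, 0.947, and Lcn2 followed with 0.914 to S100a9 and 0.844 to S100a8. Among S100a8, S100a9, Lcn2, Retnlg, Cxcr2 and Csf3r, a group chosen after the values were seen, the lowest r was 0.483, between Csf3r and Retnlg. Ltf and Ngp reached 0.582 with each other, and Ltf had 0.493 with S100a9, so that the border of that group was not sharp. Camp and Mxd1 had no r above 0.29 with any of the other genes, and the lowest of all pairs, -0.509, was that of Csf3r and Camp. Among the other secondary granule genes, Lcn2 had 0.433 with Ltf, -0.0725 with Ngp and -0.117 with Camp.

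**Figure D3:**
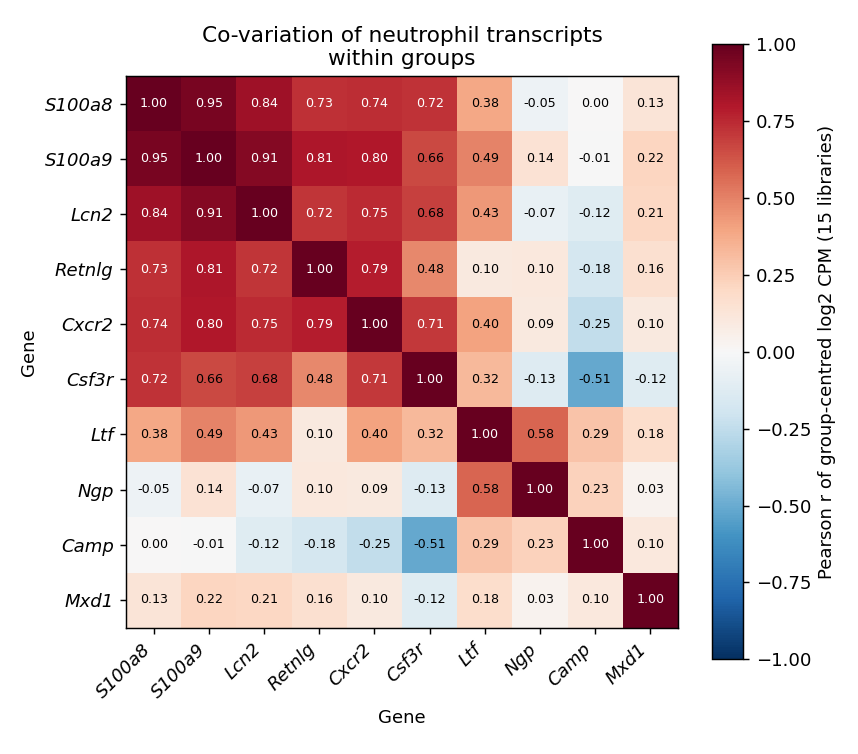
Pearson's r of group-centred log2 CPM over 15 libraries for each pair of the 10 genes (rows and columns; colour from -1 to 1). The upper left block of S100a8, S100a9, Lcn2, Retnlg, Cxcr2 and Csf3r ranges from 0.483 to 0.947, and Camp against Csf3r is lowest at -0.509.

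The proportions between these genes were also compared by group. S100a9 counts were 1.38 to 1.56 times those of S100a8 in neonatal recipients, 1.37 to 1.83 in neonatal controls, 1.5 to 2.33 in adult recipients and 2.0 to 2.39 in adult controls. The ratio was thus higher in each adult control than in any neonatal library. Csf3r relative to S100a8 was 1.35 to 2.57 in neonatal recipients, 0.767 to 2.31 in neonatal controls, 0.690 to 0.979 in adult recipients and 1.18 to 1.57 in adult controls. All 4 adult recipients lay below all 3 adult controls and below all 4 neonatal recipients in this ratio. These ratios compare transcripts of 498 bases (S100a8), 519 (S100a9) and 3481 (Csf3r), so the ratio with Csf3r, unlike that of the calprotectin subunits, spans a large difference in length.

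**Figure D4:**
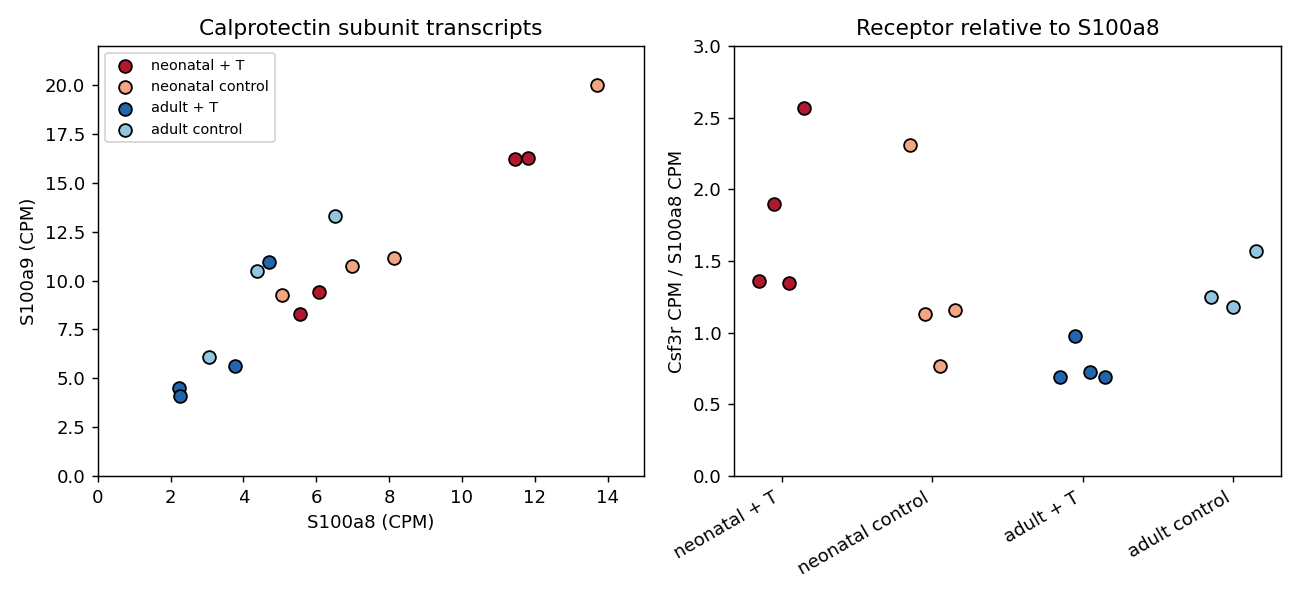
Left, CPM of S100a9 (y axis) against S100a8 (x axis) in each of 15 libraries, coloured by group. Right, the ratio of Csf3r to S100a8 CPM per library by group, with adult recipients between 0.690 and 0.979 and adult controls between 1.18 and 1.57.

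Other genes of neutrophil biology were examined by list. Their counts in neonatal against adult hearts stand beside the shares of all genes given above for recipients, 26.9% higher and 23.8% lower, and those for controls, 15.4% higher and 15.6% lower. No gene of any of these lists was called between neonatal recipients and controls. In neonatal against adult recipients, 12 of 20 further genes of mature neutrophils were higher and 1 lower. In neonatal against adult controls 4 of the 20 were higher, beside 15.4% of all genes, and 1 lower, beside 15.6%. Il1r2, the decoy receptor for interleukin-1, averaged 1.31 ± 0.839 CPM in neonatal recipients and 0.0770 ± 0.0418 in adult recipients, and 1.68 ± 1.04 in neonatal controls against 0.111 ± 0.0895 in adult controls (adjusted p = 0.000251 and 0.000914 in edgeR). All 4 adult recipients and 2 of the 3 adult controls were at or under the floor of 3 counts for Il1r2, 0.113 to 0.147 CPM in these libraries, so no fold is given. Il1r2 passed the filter through the neonatal libraries, as did Fpr1, Fpr2, Trem1, Trem3, Osm and Wfdc21 of this list. Arg2, Chil3 and Cd177 of the next list did so too. Such genes raise these counts in 1 direction only, so the counts of either list cannot be weighed against the share of all genes. Clec4d, a C-type lectin of myeloid cells, averaged 10.3 ± 4.20 CPM in neonatal recipients and 0.620 ± 0.331 in adult recipients (4.06 ± 0.60), and 7.37 ± 4.35 in neonatal controls against 0.562 ± 0.347 in adult controls (3.71 ± 0.67). The gene that was lower was Tnfaip2, an inflammation-induced gene also expressed in endothelium (-0.98 ± 0.14 in recipients and -1.24 ± 0.15 in controls).

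Of 8 tested genes of later granules outside the 10, 4 were higher in neonatal than in adult recipients. Among them Mmp9, gelatinase B, averaged 5.34 ± 3.11 CPM in neonatal recipients and 1.10 ± 0.316 in adult recipients (2.28 ± 0.55, adjusted p = 0.00349). Anxa1, an anti-inflammatory phospholipid-binding protein that many cell types make, was the 1 gene of the list also higher in neonatal controls, with a log2 fold change of 1.17 in both comparisons. Arg2, another of the 4, encodes the mitochondrial arginase and is not a granule protein. Of 4 tested granulocyte transcription factors, Cebpa and Spi1, the gene of PU.1, were higher at the younger age in both comparisons, with Cebpa at 12.7 ± 2.79 CPM in neonatal recipients and 2.72 ± 0.559 in adult recipients (2.22 ± 0.25) and Spi1 at 19.0 ± 3.14 and 5.93 ± 0.619 (1.68 ± 0.33). Cebpb was higher in neonatal than in adult controls (0.62 ± 0.19, adjusted p = 0.0187) and had 0.24 ± 0.17 between recipients (adjusted p = 0.241), and Cebpd was lower in neonatal than in adult recipients (-0.44 ± 0.14).

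Partners of the 10 genes differed with age as well. Of the 5 chemokines that bind CXCR2, 4 were higher in neonatal than in adult recipients, beside 26.9% of all genes, and 4 in neonatal than in adult controls, beside 15.4%. Ppbp, the platelet chemokine, averaged 1.07 ± 0.321 CPM in neonatal recipients and 0.409 ± 0.127 in adult recipients, and Cxcl2 averaged 0.697 ± 0.556 and 0.0813 ± 0.0775, the adult level being under the floor. Cxcl3 had 0 counts in all 3 adult controls. In adult hearts Cxcl2, Cxcl3 and Cxcl5 reached at most 0.182, 0.0911 and 0.365 CPM, and they passed the filter through the neonatal libraries. A call in the other direction was hardly possible for them, so their part in these counts cannot be weighed against the share of all genes. Of 8 adhesion genes that serve leukocyte entry 6 were higher in neonatal than in adult recipients and 4 in neonatal than in adult controls, with Itgam and Itgb2, the subunits of the Mac-1 integrin of neutrophils and macrophages, at 3.02 ± 0.51 and 2.53 ± 0.44 on the log2 scale in recipients. Tlr4, a receptor for calprotectin, averaged 29.98 ± 5.20 CPM in neonatal recipients and 16.3 ± 0.880 in adult recipients (0.88 ± 0.13), while Bsg, another receptor of S100a9, averaged 717 ± 42.5 and 1237 ± 110 (-0.79 ± 0.08). Csf3, which encodes the ligand of Csf3r, was too scarce to be tested, as were Csf2 and Il17a.

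In the adult T cell comparison no gene of the granule, mature neutrophil, transcription factor, chemokine or adhesion lists was called. The calls among the genes examined were neighbours of S100a8, partners of Mxd1 and 1 cardiomyocyte gene. They stand beside 3.53% of all genes called higher and 5.03% called lower in this comparison. Of 7 tested S100 genes near S100a8 on the chromosome, 3 were higher in adult recipients than in adult controls, S100a1, S100a13 and S100a16, with S100a1, a regulator of calcium handling in cardiomyocytes, at 394 ± 47.9 and 289 ± 4.91 CPM (0.45 ± 0.10, adjusted p = 0.0206). Of 9 genes of the MYC and MAX network, Mxd4 (-0.36 ± 0.10, adjusted p = 0.0402) and Mga (-0.53 ± 0.13, adjusted p = 0.0223) were lower. Of 6 cardiomyocyte genes 1 was higher, Actc1, the cardiac actin, at 14680 ± 827 CPM in adult recipients and 11660 ± 534 in adult controls (0.33 ± 0.09, adjusted p = 0.039). These calls were lost with all others when the length trend was removed and without adult recipient 4 or adult controls 5 or 6.

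Transcripts of other myeloid cells moved with the age difference. All 8 macrophage genes were higher in neonatal than in adult recipients, beside 26.9% of all genes. In neonatal against adult controls 6 of the 8 were higher, beside 15.4%. The macrophage genes summed to 402.9 to 579.8 CPM in neonatal recipients, 162.0 to 508.5 in neonatal controls, 129.6 to 168.7 in adult recipients and 133.6 to 167.9 in adult controls. No gene of the list was at 0. The 162.0 CPM was that of neonatal control 8, and the other neonatal controls had 282.8 to 508.5. Cd68, a lysosomal glycoprotein of macrophages, averaged 64.2 ± 12.3 CPM in neonatal recipients and 8.33 ± 1.59 in adult recipients (2.94 ± 0.40). Of 6 monocyte genes 4 were higher and 1, Ly6c2, was lower in neonatal than in adult recipients, beside 26.9% and 23.8% of all genes. In neonatal against adult controls 2 were higher and 1 lower, beside 15.4% and 15.6%. The monocyte sums were 65.2 to 98.1 CPM in neonatal recipients, 22.4 to 81.4 in neonatal controls, 25.1 to 39.4 in adult recipients and 25.9 to 37.5 in adult controls. The 22.4 CPM was that of neonatal control 8, and the other neonatal controls had 47.7 to 81.4. Cardiomyocyte genes went the other way, with 5 of 6 lower in neonatal than in adult recipients, beside 23.8% of all genes. In neonatal against adult controls 2 of the 6 were lower, beside 15.6%. Erythroid sums were 934.5 to 1622 CPM in neonatal recipients and 2938 to 4190 in adult recipients. The part of these cells in the levels of the 10 neutrophil genes was not tested. Between adult recipients and adult controls the macrophage and monocyte sums overlapped and none of their genes was called. In that comparison the sums of 3 other cell type lists did not overlap and were higher in adult recipients. Among all single genes, 13.1% did not overlap and were higher there. Cardiomyocyte genes summed to 44360 to 48940 CPM in adult recipients, against 36440 to 39050 in adult controls. Erythroid genes summed to 2938 to 4190 against 2290 to 2435, and T cell genes to 4.02 to 6.06 against 2.19 to 3.38. Of the 6 cardiomyocyte genes 4 had higher fitted levels in adult recipients and 2, Ryr2 and Pln, had lower ones. Ryr2 averaged 510 ± 35.3 CPM in adult recipients, against 633 ± 22.9 in adult controls, and Pln 3622 ± 624 against 3896 ± 531. Of these lists only Actc1 was called, and their part in the adult values of the 10 neutrophil genes was not tested.

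**Figure D5:**
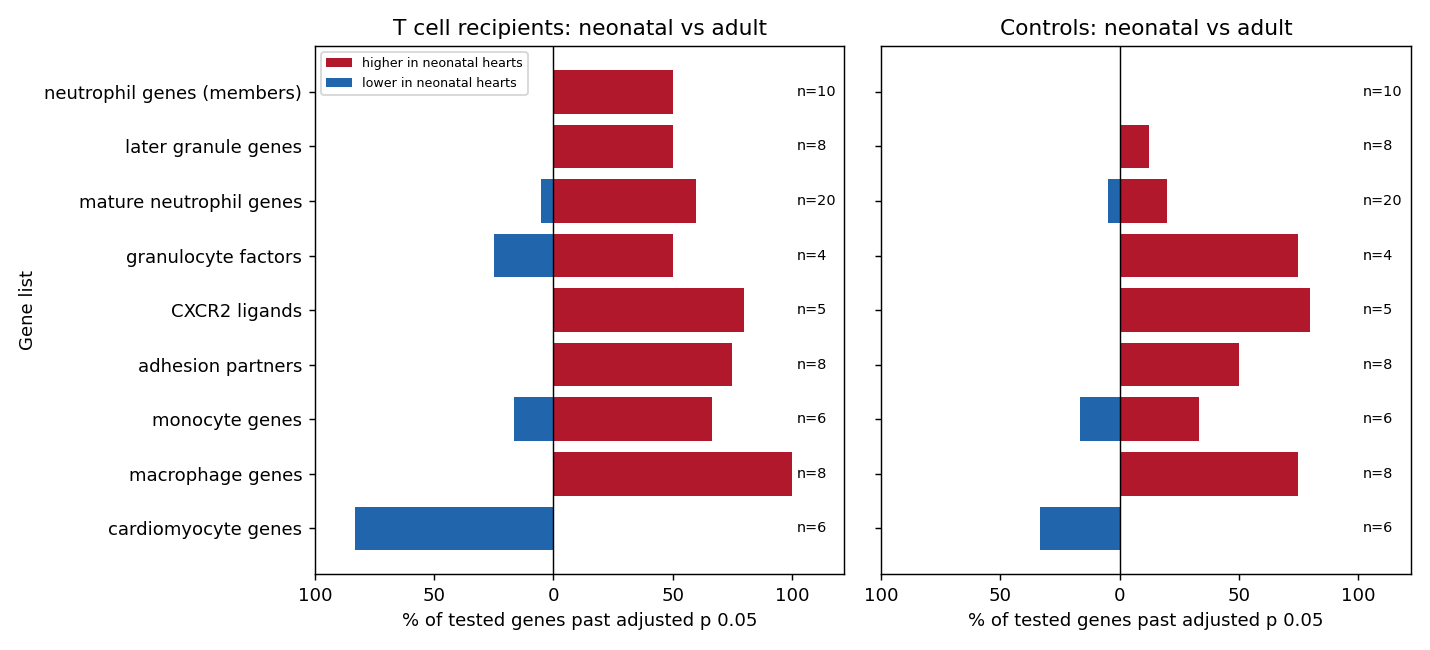
Percent of tested genes per list (y axis; n is the number tested) called higher (right of 0) or lower (left of 0) in neonatal than in adult hearts, for T cell recipients and for controls. In recipients 5 of 10 neutrophil genes and 8 of 8 macrophage genes are called higher, and in controls 0 of 10 and 6 of 8.

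The genes whose levels most resembled those of the 10 across libraries included Mmp9 and several stefins. Likeness was Pearson's r, over the 15 libraries, between a gene's group-centred log2 CPM and the mean of the centred and SD-scaled values of the 10. The highest values were those of Mmp9 (0.895), Cstdc5 (0.890), Gsto2 (0.872), Ptger4 (0.865), Nlrp12 (0.863), Stfa2l1 (0.857), Asprv1 (0.840), Zfp949 (0.838), Cstdc4 (0.837) and Csta2 (0.836). Cstdc5, Stfa2l1, Cstdc4 and Csta2 belong to the stefin A family of cysteine protease inhibitors, near-identical copies whose reads cannot be assigned with certainty. Adult recipient 3 and neonatal recipient 4 had the highest mean levels of the 10 relative to their groups, and without them the r of Mmp9 was 0.909 and that of Gsto2 0.929, while that of Zfp949 was 0.782.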

How the data were processed

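Left-ventricle libraries were grouped by sample title. The submitters' processing notes name cutadapt 2.5 for trimming, STAR 2.7.2b for alignment to GRCm38.p6 and featureCounts 1.6.4 for counting. The authors deposited expected counts per gene, partly fractional (61.1% of non-zero values whole), unnormalized. Fractions occurred for Csf3r and Mxd1 in 66.7% of libraries. The strand setting is not given in the sources used here.

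Counts were rounded, filtered with filterByExpr (minimum count 10, minimum total 15) and TMM-scaled. All 15 libraries entered 1 robust quasi-likelihood fit (edgeR 4.0.16, R 4.3.3), with two-sided tests and Benjamini-Hochberg adjustment over 16437 genes. Log2 CPM used a prior count of 1. Transcript lengths came from GENCODE M21, for 15334 tested genes, and the length trend was a spline with 5 degrees of freedom. The steps were tested on simulated data. Alternatives were RLE scaling, no filter, unrounded counts, the length trend removed, DESeq2 1.42.0, limma 3.58.1 (voom), only the groups compared, a replicate block and leaving out each library. Floors of 3 counts cover counting error only. The 10 genes and the lists were chosen with earlier results of these data known. From each list, up to 3 genes with the smallest p in either T cell contrast or the control age contrast were named. Arg2, Cebpd, S100a13, Mpo, Cxcl5, Mcpt4, the untested eosinophil genes and the scarce cytokines were added after their values were seen. So were Ryr2, Fpr1, Fpr2, Trem1, Trem3, Osm, Wfdc21, Chil3 and Cd177.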

Additional observations from a re-analysis of the deposited data

How the results depend on the processing

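The number of genes called in adult hearts with T cells was 1406, 2324 with DESeq2 and 0 with the transcript length trend removed, and 0 to 1811 when 1 library was left out. In neonatal hearts it was 0, and 0 to 9 with 1 library left out. DESeq2 called 174 genes for the difference of T cell effects, where edgeR called 0. Of the 10 neutrophil genes, 1 (Csf3r) was called in adult hearts by DESeq2 and by a fit of the adult libraries alone, and 0 to 1 with 1 library left out. The counts with 1 library left out were 3 to 6 in neonatal against adult recipients and 0 to 2 in controls. Replicate numbers are shared only across ages, and the deviations of same-numbered libraries correlated by -0.0614 and 0.31 in controls (2 pairs) and -0.0709 to 0.111 in recipients (3 pairs), not above 0.1 in every pair, so the numbers were not taken as pairing. The fit with a replicate block holds only libraries of shared numbers. It gave 1 call in controls (Csf3r, 1.11) and 8 in recipients, adding Ltf (0.94), Mxd1 (0.40) and Retnlg (0.93), and 3903 and 7354 genes. The same libraries without the block, an alternative chosen after seeing the data, gave 1 call in controls and 7 in recipients, all but Retnlg of those 8, and 3017 and 7408 genes, against 5085 and 8339 in the fit of all 15 libraries. No paired analysis of T cells was possible because recipients and controls of one age share no number. Signs turned for values near 0. In neonatal hearts Lcn2 was 0.093 with limma voom. Ngp in recipients was 0.17 with the replicate block, 0.21 in its libraries without the block and 0.066 with the length trend removed, and Retnlg in adult hearts was -0.027 with the trend removed. Leaving out 1 library gave, in neonatal hearts with T cells, -0.070 to 0.57 for Camp, -0.37 to 0.30 for Cxcr2, -0.23 to 0.54 for Lcn2, -0.16 to 0.38 for S100a8 and -0.18 to 0.28 for S100a9. It gave -0.0054 to 0.78 for Lcn2 between controls, -0.30 to 0.11 for Ngp between recipients, -0.17 to 0.49 for Retnlg in adult hearts, and, for the difference of T cell effects, -0.39 to 0.43 for Ltf and -0.060 to 0.60 for Retnlg. The cause of these changes was not tested. Depth limits Camp and Cxcr2 most, with as few as 3 and 4 counts in a library.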

Other observations

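Adult recipient 3 had the highest sum of the 10 neutrophil genes among adult recipients, 37.0 CPM, within the 30.2 to 46.9 CPM of adult controls. It stood out in genes of early granulocytes. Mpo, the peroxidase of primary granules, measured 2.05 CPM there, against 0 to 0.113 CPM in the other adult recipients and 0 to 0.0423 CPM in adult controls, and the 5 primary granule genes summed to 3.62 CPM against 0.162 to 0.440 CPM in adult controls. These genes were too scarce for a test apart from Prtn3, which averaged 0.413 ± 0.279 CPM in adult recipients and 0.299 ± 0.139 in adult controls (SD, n = 4 and 3). Siglecf, a surface lectin of eosinophils, was the only tested gene of 5 for that cell type and was higher in neonatal than in adult recipients, at 1.22 ± 0.870 and 0.143 ± 0.151 CPM (adjusted p = 0.00219 in edgeR). Adult recipients 2, 3 and 4 were at or under the floor of 3 counts, at 0.0471, 0.0489 and 0.113 CPM. Siglecf thus passed the filter through the neonatal libraries, and no fold is given. The untested genes were mixed. Prg2, Epx and Prg3 averaged 0.172, 0.0618 and 0.011 CPM in neonatal recipients and 0.629, 0.113 and 0.048 in adult recipients, and Ccr3 0.149 and 0.102. Of 4 tested mast cell genes, 0 were called between recipients and 2, Cpa3 (1.27 ± 0.44) and Tpsb2 (0.98 ± 0.35), were higher in neonatal than in adult controls, beside 15.4% of all genes. Neonatal control 8 was highest in both, at 10.6 and 9.24 CPM, against 2.47 to 4.53 and 3.82 to 6.27 in the other neonatal controls. Values without it are not given for these genes. Mcpt4 went the other way, averaging 1.39 ± 1.32 CPM in neonatal controls and 2.05 ± 0.631 in adult controls.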
